A study of Homo sapiens with 2 samples.

Results

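RGS1, RGS2, RGS3, RGS10, RGS12, RGS13, RGS14, RGS16, RGS18 and RGS19 are 10 genes of regulators of G protein signalling, known from blood cells and other tissues as brakes on chemokine receptors. They were taken by name from the array annotation, in which each of the 10 has 1 probe set that maps to it alone, among 18377 genes with such a probe set. RNA of LP-1, a human cell line grown from multiple myeloma, a plasma cell cancer, was hybridised to 2 Affymetrix whole-transcript arrays. The HIF2A array holds RNA of cells infected with the vector pRUF-IRES-GFP carrying the full-length cDNA of human HIF-2α, the product of EPAS1 and the part of a transcription factor that oxygen makes unstable. The vector control array holds RNA of LP-1 cells with pRUF-IRES-GFP alone, so both groups carry the vector. The labels describe stable lines and do not say whether each is a clone or a pool, at which oxygen level the cells grew, or how the vector drives HIF-2α.

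Chemokine receptors signal through heterotrimeric G proteins, mostly of the Gi class, whose alpha subunit is active while it holds GTP. RGS proteins bind the active alpha subunit through their RGS domain and speed up the hydrolysis of GTP, which ends the signal. In lymphocytes they shape how long and how strongly cells migrate towards chemokines such as CXCL12, which keeps plasma cells in the bone marrow.

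Of the 10 genes, RGS14 was the 1 that differed at least 2-fold. It had a log2 signal of 6.10 in the HIF2A array and 5.08 in the vector control, a difference of 1.02 or 2.03-fold. The 2-fold line was not held in 4 alternative settings: the difference was 0.98 after quantile normalization and after loess centring, 0.81 minus the median of its neighbours and 0.612 with 32 added before taking log2. The differences of the other 9 lay between -0.30 and 0.08, with RGS12, RGS13 and RGS18 too dim to pass the filter described below. With 1 array per group no test, error or p-value can be had, no difference here has a replicate check, and the number of arrays limits the precision.

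Promoter sequences from RefSeq (GRCh38.p14), which run from 250 bases before to 50 bases after a transcript's start, are shown for the member that was at least 2-fold higher, for 1 with nearly equal signals and for the member with the most negative difference. HIF binds DNA at a short core sequence, and capitals mark ACGTG and GCGTG on either strand. On the opposite strand these read CACGT and CACGC, and a CACGTG is counted once on each strand.
RGS14 chr5:177357674-177357973, plus strand: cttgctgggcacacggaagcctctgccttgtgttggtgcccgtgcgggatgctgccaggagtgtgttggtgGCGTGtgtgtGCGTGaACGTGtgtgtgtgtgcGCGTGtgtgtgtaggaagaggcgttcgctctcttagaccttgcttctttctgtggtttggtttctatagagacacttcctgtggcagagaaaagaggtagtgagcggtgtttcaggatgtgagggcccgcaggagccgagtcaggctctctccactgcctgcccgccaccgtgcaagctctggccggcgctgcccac
RGS16 chr1:182604340-182604639, minus strand: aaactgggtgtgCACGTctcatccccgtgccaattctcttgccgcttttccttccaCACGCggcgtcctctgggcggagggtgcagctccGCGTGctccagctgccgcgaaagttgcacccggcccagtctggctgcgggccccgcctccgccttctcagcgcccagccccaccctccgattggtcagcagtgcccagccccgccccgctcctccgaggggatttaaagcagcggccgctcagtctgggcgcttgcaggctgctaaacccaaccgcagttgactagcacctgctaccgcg
RGS19 chr20:64079469-64079768, minus strand: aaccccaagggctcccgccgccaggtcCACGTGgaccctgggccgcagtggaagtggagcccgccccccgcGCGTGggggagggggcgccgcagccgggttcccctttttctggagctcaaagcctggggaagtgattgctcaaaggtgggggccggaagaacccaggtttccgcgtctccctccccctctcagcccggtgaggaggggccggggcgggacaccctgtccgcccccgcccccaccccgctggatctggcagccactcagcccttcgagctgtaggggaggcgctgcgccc
The RGS14 promoter holds 4 matches, 1 of ACGTG and 3 of GCGTG, and the first base of each lies between 179 and 147 bases before the start, in a stretch rich in gt repeats. RGS16, whose signals were nearly equal, has 3 matches, and so has the RGS19 promoter shown, where 2 of the 3 are the same CACGTG read on each strand. RGS19 has another promoter in the table, with 0 matches. Of 35116 promoters of this length, which include several for some genes, 48.4% hold at least 1 match, 10.1% at least 3 and 4.4% at least 4. All 10 members have a promoter in the table, 20 in all, and 12 of these promoters hold a match. The 3 shown hold the most matches of the 20, and none of the others holds more than 2. RGS16 thus does not stand for the members with nearly equal signals. RGS3, at a difference of -0.02, has a promoter with 2 matches and others with 0, and RGS10, at 0.08, has promoters with 0 and 1. A match to 5 letters is a description of the sequence and not a binding site.

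The arrays were first set against their labels. The EPAS1 signal was 9.05 in the HIF2A array and 3.70 in the vector control. The 8 plasma cell markers all passed the filter on dim signals described below, at 7.53 to 12.55 in the HIF2A array and 7.58 to 12.59 in the vector control. Of 6 markers each, 1 of T and NK cells, 2 of myeloid cells and 4 of stromal and endothelial cells passed, and 2 of 5 measured B cell markers did. The highest of these other markers reached 5.28 in the HIF2A array and 5.03 in the vector control.

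Of the 10 RGS genes, 7 passed the filter, which asks for a signal of at least 4.01 in the brighter array. Dimness was judged from 339 olfactory receptor genes, whose 95th percentile was 3.58 in both arrays. RGS13 and RGS18 lay below that level in both arrays, so they have no measured fold. RGS12 lay above it by 0.04 in the HIF2A array and by 0.16 in the vector control and did not pass the filter. Signals of different probe sets also reflect their probes, so levels are compared between arrays and not between genes.

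**Figure D1:**
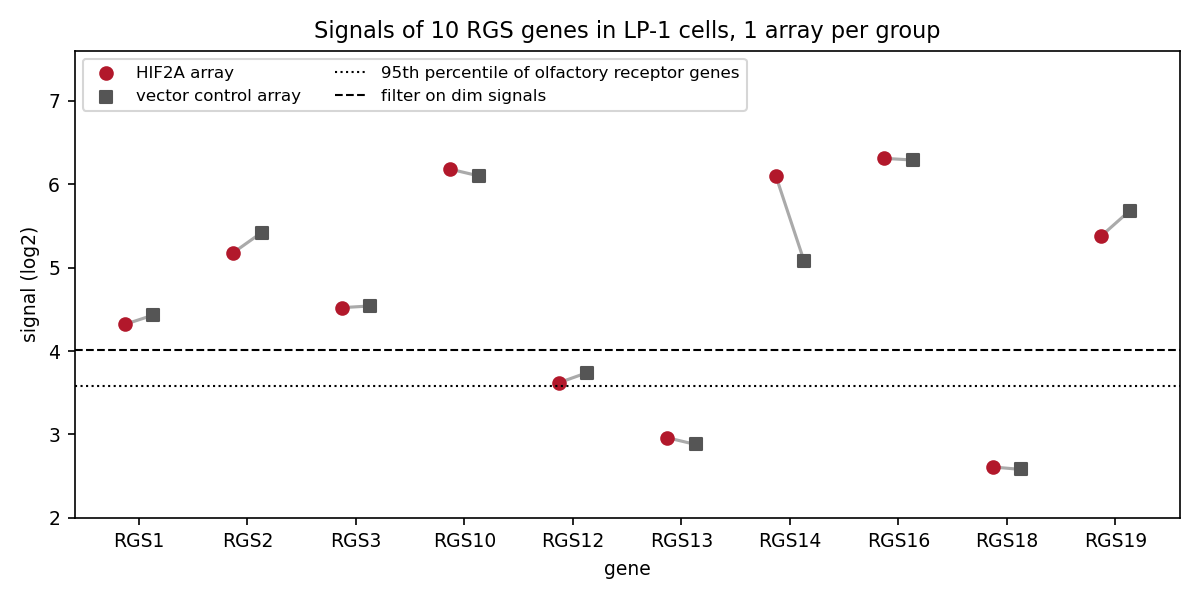
Log2 signal (y axis) of each of the 10 RGS genes (x axis), with a red point for the HIF2A array and a grey square for the vector control, 1 array per group; the dotted line is the olfactory receptor 95th percentile of 3.58 and the dashed line the filter at 4.01. RGS14 is the pair that stands widest apart, at 6.10 and 5.08, and RGS13 and RGS18 lie below the dotted line.

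RGS14 belongs with RGS10 and RGS12 to the subfamily called R12. RGS14 and RGS12 are long scaffold proteins that also carry Ras-binding domains and a GoLoco motif, which holds the inactive Gi alpha subunit, while RGS10 is a small protein made of little more than its RGS domain. RGS10 had 6.18 in the HIF2A array and 6.10 in the vector control, a difference of 0.08. RGS12 had 3.62 in the HIF2A array and 3.74 in the vector control, a difference of -0.12. The close relatives of RGS14 thus differed by much less than RGS14 did, RGS12 at signals near the olfactory receptor level.

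RGS1, RGS2, RGS3, RGS13, RGS16 and RGS18 belong to the subfamily called R4, whose members are mostly small, apart from long forms of RGS3. RGS1, a gene of activated B cells that dampens migration towards CXCL12, had 4.32 in the HIF2A array and 4.43 in the vector control, a difference of -0.11. RGS2, which acts mainly on the Gq class, had 5.18 in the HIF2A array and 5.42 in the vector control, a difference of -0.24. RGS16, an activation-induced regulator of Gi and Gq, had 6.31 in the HIF2A array and 6.29 in the vector control. Of these 3 genes, RGS1 and RGS2 were slightly lower in the HIF2A array and RGS16 differed by 0.02. RGS3, which acts on both classes, had 4.52 in the HIF2A array and 4.54 in the vector control. RGS13, a gene of germinal centre B cells and mast cells, had 2.96 in the HIF2A array and 2.88 in the vector control. RGS18, a gene of platelets and their precursors, had 2.61 in the HIF2A array and 2.58 in the vector control. The signals of these last 2 genes are in the olfactory receptor range, and their differences of 0.08 and 0.03 carry no direction.

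RGS19, also called GAIP, belongs to the RZ subfamily, which carries a cysteine-rich string near its start and acts on Gi alpha subunits. It had 5.38 in the HIF2A array and 5.68 in the vector control. Its difference of -0.30, 1.23-fold lower, was the most negative of the 10.

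Across the 11469 genes past the filter, the median difference was 0.03 and the robust SD, the scaled median absolute deviation, was 0.34. Of the 10 members, 9 lay within 1 robust SD of that median, including RGS12, RGS13 and RGS18, which did not pass the filter. The median of the 10 was 0.00. Of the 7 past the filter, 3 had a positive and 4 a negative difference, with a median of -0.02, and RGS13 and RGS18 have no direction. At least 2-fold higher was 1 member, RGS14, against a share of 0.706% among genes past the filter and 0.441% among all 18377 genes. At least 2-fold lower were 0 members, against 0.732% among genes past the filter and 0.473% among all genes. At 1.5-fold the counts were again 1 higher, against 5.67% among genes past the filter and 3.81% among all genes, and 0 lower, against 4.76% and 3.37%. A count of 1 in 10 rests on a single gene, and no test was made of it.

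RGS14 stood 71st from the top among the 11469 differences. Among the 2925 other genes past the filter whose mean signal was within 0.5 log2 units of its own, 17 had a difference as high or higher. By contrast 39.6% of all genes past the filter differed in either direction by at least as much as RGS19, 49.5% by at least as much as RGS2 and 75.9% by at least as much as RGS1. RGS3 and RGS16 were exceeded or equalled by 96.4% of genes each, and RGS10 by 82.5%.

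**Figure D2:**
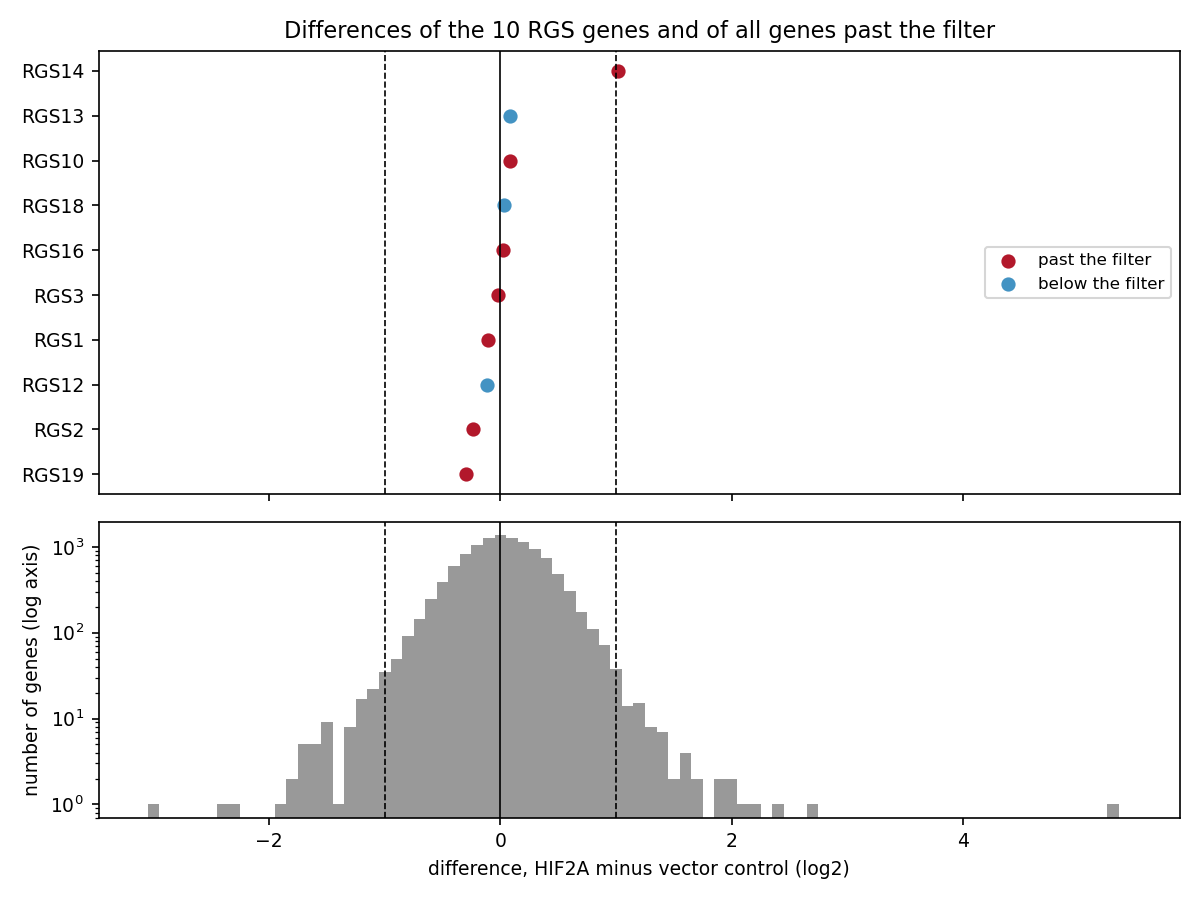
The x axis is the difference in log2 units, HIF2A minus vector control; the upper panel gives each of the 10 RGS genes as a point (red past the filter, blue below it) and the lower panel the number of genes per bin on a log axis for the 11469 genes past the filter, with dashed lines at 2-fold. RGS14 at 1.02 lies just beyond the line, and the other 9 lie between -0.30 and 0.08, near the middle of all genes.

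RGS14 lies on chromosome 5, where genes past the filter were mostly higher in the HIF2A array. Over 455 such genes the chromosome's median difference was 0.28, and 74.3% were higher. At least 2-fold higher were 13 of them, or 2.86%, and RGS14 was 10th from the top. The median of its 20 nearest genes past the filter was 0.21, 14 of them higher and 6 lower, and they ranged from -0.55 for MXD3 to 0.94 for GRK6. RGS14 was above each of the 20, and its difference minus their median was 0.81. Whether what moved the neighbourhood also moved RGS14 was not tested.

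The nearby GRK6 encodes a G protein-coupled receptor kinase, which phosphorylates active receptors such as CXCR4 and itself has a domain related to the RGS domain. It had 6.57 in the HIF2A array and 5.63 in the vector control, a difference of 0.94. NSD1, a histone methyltransferase gene on the other side of RGS14, had 6.11 in the HIF2A array and 5.21 in the vector control, a difference of 0.90. LMAN2 and SLC34A1, the genes past the filter next to RGS14 on either side, had differences of 0.56 and -0.26. SLC34A1 reached the filter in the vector control only, at 4.26 against 4.0 in the HIF2A array. High and low neighbours were thus interleaved in their order, as the plot of neighbouring genes shows. The 6 lower neighbours had at most 5.63 in either array. That value was read from these same 6 genes, so that no brighter neighbour was lower follows from it and is no separate result.

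RGS19 lies near the end of chromosome 20, where the median of its 20 nearest genes past the filter was 0.18, 13 of them higher and 7 lower. Its own difference minus that median was -0.48. The next gene, OPRL1, had -0.31, and the lowest of the 20, C20orf204, had -0.32, so RGS19 lay inside the range of its neighbours. Both were dim, near the filter at 4.01. OPRL1 had 4.05 in the HIF2A array and 4.36 in the vector control, and C20orf204 had 4.12 and 4.44. The lowest of the remaining neighbours had -0.14. Over the 351 genes of chromosome 20 past the filter the median was -0.01. RGS18, RGS1, RGS13 and RGS2 lie in that order in a cluster on chromosome 1, with RGS21 between RGS18 and RGS1. RGS18, RGS21 and RGS13 were below the olfactory receptor level in both arrays, which leaves RGS1 at -0.11 and RGS2 at -0.24 as the measured differences of the cluster. Their shared surroundings had a median of 0.04. RGS16, elsewhere on chromosome 1, had neighbours with a median of 0.045. For RGS3, RGS10 and RGS12 the neighbour medians were 0.09, 0.05 and 0.115.

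**Figure D3:**
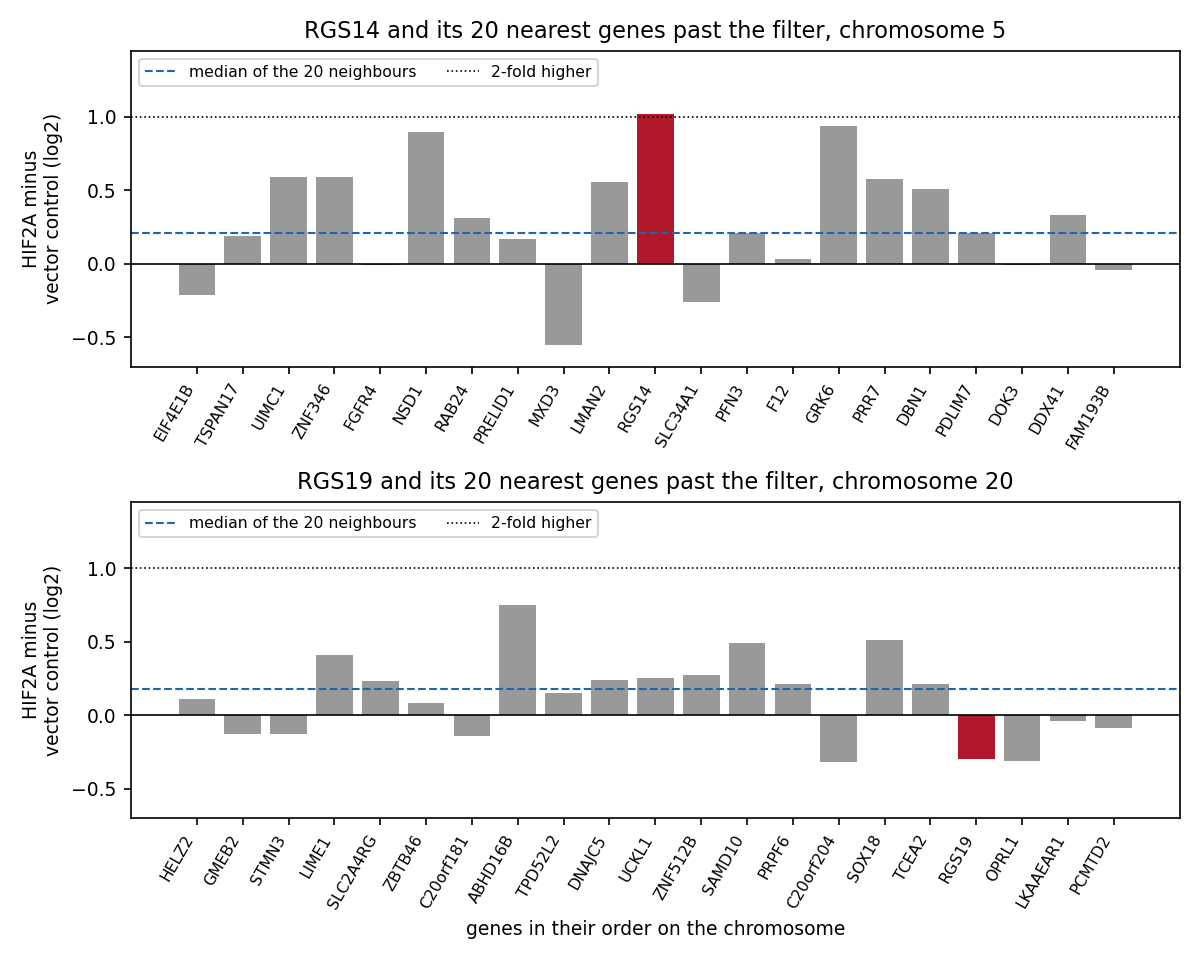
Bars give the difference in log2 units, HIF2A minus vector control, of RGS14 (upper panel) and RGS19 (lower panel), in red, and of the 20 nearest genes past the filter, in grey, in their order on the chromosome; the dashed line is the median of the 20 and the dotted line is 2-fold. RGS14 is the highest bar, ahead of GRK6 at 0.94, while RGS19 is at -0.30, beside OPRL1 at -0.31, with a neighbour median of 0.18.

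Other genes of G protein signalling give the surroundings of these 10. A gene that reached the filter in 1 array only entered because it is high there, so each median is also given over all measured genes of its list. Those wider medians include genes below the olfactory receptor level, which have no measured fold. The other RGS and RGS-related genes number 14, and 3 of them passed the filter, at differences of 0.32 for AXIN2, 0.12 for AXIN1 and 0.03 for RGS11. AXIN2 and RGS11 reached it in the HIF2A array only, and the median of all 14 was 0.115. AXIN1 and AXIN2 carry an RGS domain but act in Wnt signalling. The 11 genes below the filter had signals of at most 3.63 in either array, near or below the olfactory receptor level of 3.58. Their differences, from -0.33 for RGS7 to 0.38 for RGS6, carry no direction, and the median of all 14 rests mostly on them. None of the 3 genes past the filter reached 1.5-fold, against 5.67% higher and 4.76% lower among all genes past the filter.

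The alpha subunits, on which RGS proteins act, had a median of 0.09 over the 11 of 13 past the filter, with 7 higher and 4 lower, and 0.04 over all 13. Of the 11, 0 reached 1.5-fold, against 5.67% higher and 4.76% lower among all genes past the filter. Among the Gi subunits, GNAI2 had 6.87 in the HIF2A array and 6.56 in the vector control, a difference of 0.31. GNAI3 had a difference of -0.41 and GNAI1 one of -0.33. The Gq subunit gene GNAQ had 0.39. GNAI1, GNAI2 and GNAI3 thus did not share a sign, at differences under 1.5-fold that have no replicate check. Beta and gamma subunit genes had a median of 0.01 over 8 past the filter, 4 higher and 4 lower, and -0.04 over all 16 measured. The ends of their range, -0.47 for GNG8 and 0.42 for GNG13, belong to genes that reached the filter in 1 array only.

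Among other regulators of alpha subunits 7 passed the filter, 5 higher and 2 lower, and their median was 0.21, against 0.16 over all 9. RIC8A, a chaperone and exchange factor for alpha subunits, had 7.20 in the HIF2A array and 6.56 in the vector control, a difference of 0.64. It was the 1 of the 7 beyond 1.5-fold, against 5.67% higher and 4.76% lower among all genes past the filter. RIC8B had 0.48, and GPSM2, which like RGS14 has GoLoco motifs, had -0.25. Of the 7, 3 reached the filter in 1 array only, namely RIC8B, GPSM2 and the gene at the median of 0.21. That gene had 4.01 in the HIF2A array and 3.8 in the vector control. Receptor kinases and arrestins, which silence receptors upstream of the G protein, had a median of 0.35 over the 4 genes past the filter and of 0.05 over all 8 measured. GRK6 was at 0.94, GRK2 at 0.32 and GRK5 at -0.04, and ARRB1, which reached the filter in the HIF2A array only, at 0.38.

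Receptors of chemokines and other chemoattractants included the largest difference of these lists. CCR1 had 6.90 in the HIF2A array and 4.21 in the vector control, and CXCR4, the receptor of CXCL12, had 7.46 in the HIF2A array and 7.13 in the vector control. CXCL12 itself, which reached the filter in the HIF2A array only, had 6.15 there and 3.94 in the vector control. P2RY8, a receptor that confines B cells in germinal centres, had 6.48 in the HIF2A array and 7.38 in the vector control, a difference of -0.90, and S1PR4, which reached the filter in the vector control only, had -0.65. With 9 receptors past the filter, 4 had a positive and 5 a negative difference. Of the 5, 2 reached the filter in the vector control only, S1PR4 among them, and so could only count as negative. By at least 1.5-fold, 1 was higher and 2 were lower, against 5.67% and 4.76% among all genes past the filter. The median of the 9 receptors was -0.19, which came to -0.01 over all 26 measured and to 0.21 with the stricter filter at the 75th percentile of signals. The RGS genes past the filter other than RGS14 thus had differences under 1.5-fold beside a 6.45-fold difference of CCR1.

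Among effectors of Gi and Gq 9 genes passed the filter, 7 higher and 2 lower, 1 in each direction by at least 1.5-fold, and their median was 0.39. Over all 20 it was 0.125. RAC2, a small GTPase of blood cell migration, had 8.83 in the HIF2A array and 8.0 in the vector control, a difference of 0.83. PLCB3, a phospholipase that Gq and free beta-gamma subunits activate, had 0.53 and the adenylyl cyclase gene ADCY1 0.48. ELMO1, which with DOCK2 activates RAC proteins, had -0.53. PIK3R5, a subunit of the kinase that beta-gamma subunits activate, had 3.54 in the HIF2A array, below the olfactory receptor level of 3.58, and 4.17 in the vector control. Set against that level it was at least 1.51-fold lower, and it is the 1 effector counted as 1.5-fold lower. PIK3R5 reached the filter in the vector control only, so it could only count as lower. Among all genes past the filter 5.67% were at least 1.5-fold higher and 4.76% lower. Each list median is set against the 0.03 of all genes past the filter, and none was tested.

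**Figure D4:**
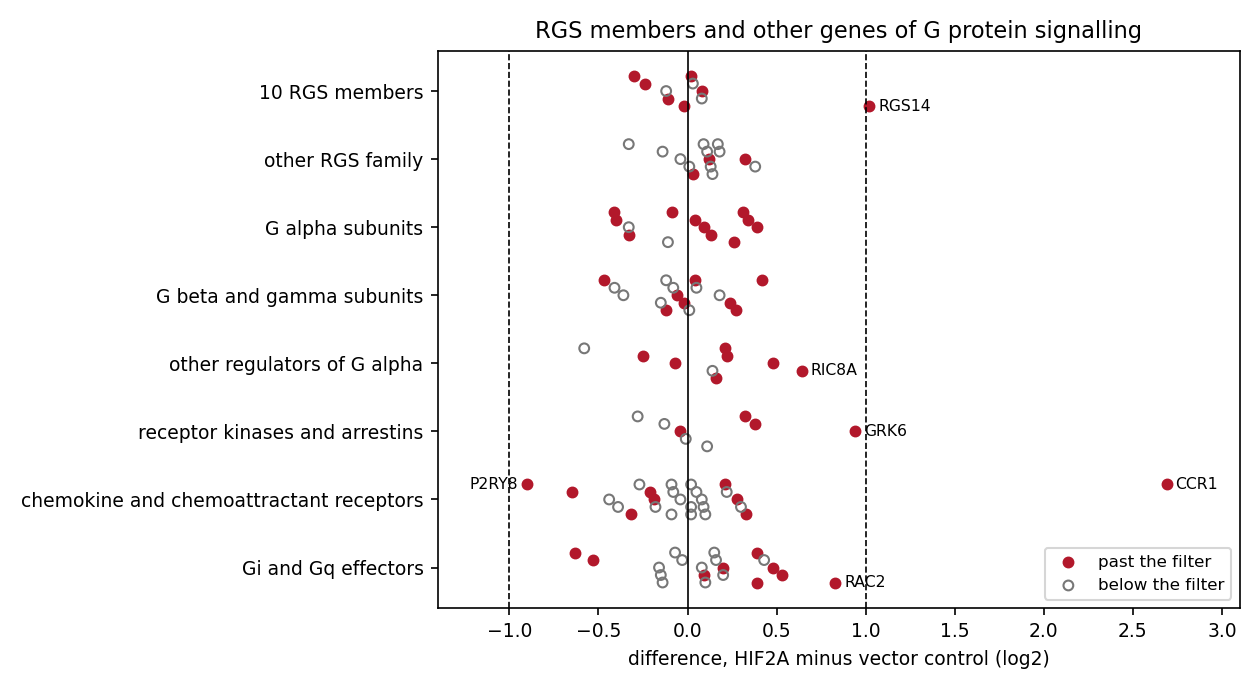
Each point is a gene, placed by its difference in log2 units, HIF2A minus vector control (x axis), in a row for the 10 RGS genes and for each of 7 gene lists; red points passed the filter, open points did not, and dashed lines mark 2-fold. RGS14 at 1.02 and CCR1 at 2.69 are the points beyond 2-fold.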

How the data were processed

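The authors deposited a log2 signal per probe set for 2 arrays, and the submitters' processing notes name Affymetrix Expression Console; which summarisation, version and background correction it ran is not stated there. Log2 was inferred because the top value, 13.97, is above 11.09, the most a natural log of a 16-bit reading could give. Of 28869 probe sets, 19310 have a single gene symbol, and 19279 of these matched RefSeq (GRCh38.p14) by Entrez number, which gave names and gene order only. No source used here gives the annotation's genome build. Each gene took its probe set with the highest mean. The filter is the median of probe set means, 4.01. Differences are HIF2A minus vector control, called at 2-fold, with 1 array per group and no test. Neighbours are the 20 nearest genes past the filter, 10 on each side where the chromosome has them. The members and gene lists were chosen with earlier results of these data known. All members and the genes of the lists with up to 3 of the largest positive and 3 of the largest negative differences may be named, as may EPAS1, CCR1, CXCR4, CXCL12 and genes next to a member; the genes of the other RGS list below the filter, RGS7, RGS6 and RGS21, were picked after their values were seen. Alternatives were quantile, median and loess centring (span 0.3, 3 passes), adding 32 before taking log2, dropping the filter or raising it to the 75th percentile, a gene's mean or dimmest probe set, and subtracting the median of neighbours; the median over members past the filter was added after seeing the data. The 2-fold cut-off was tried on simulated differences, which did not run the counting, filter or neighbour steps. Python 3.11.15, numpy 2.4.6, pandas 2.3.3, statsmodels 0.14.6 and matplotlib 3.10.9 were used.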

Additional observations from a re-analysis of the deposited data

How the results depend on the processing

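No paired analysis was possible because each group has 1 array, and for the same reason no replicate could be left out. RGS14 was higher in the HIF2A array under each alternative, but its side of the 2-fold line was not stable. Its difference was 0.98 after quantile normalization and after loess centring, 0.612 with 32 added on the linear scale and 0.81 after subtracting the neighbours' median, so that 0 members were at least 2-fold higher in these 4 settings, and 1.04 after median centring. Adding 32 shrinks dim signals by construction. The other 9 members ranged from -0.48, for RGS19 after subtracting neighbours, to 0.115, for RGS13, and RGS16 and RGS18 changed sign around 0. The count of members at least 1.5-fold higher stayed at 1 in each alternative and the count lower at 0. The median of the members lay between -0.068 and 0.05. Each member has 1 probe set, so the choice of probe set could not move a member's value. The median of the chemoattractant receptors came to 0.21 with the filter at the 75th percentile, which changes only the genes that enter. The median of receptor kinases and arrestins ran from 0.05 without a filter to 0.63 with the filter at the 75th percentile, that of effectors from 0.125 without a filter to 0.41 after median centring and that of other regulators of alpha subunits from 0.118 with 32 added to 0.4 with the stricter filter, so their sizes rest on the setting. No gene of the other RGS list passed that filter.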
